A study of Mus musculus with 6 samples.

Results

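Phospholipase C gamma and protein kinase C are the enzymes through which the IgE receptor of mast cells turns membrane lipid into a calcium signal and into kinase activity. The genes followed were Plcg1, Plcg2, Prkca, Prkcb, Prkcd, Prkce, Prkch, Prkcq, Prkci and Prkcz. They were chosen by gene symbol, with earlier results of these data known. All 10 were among the 19938 genes that had a probe set with exactly 1 symbol. Where a symbol had several probe sets, the one with the highest mean over the arrays stood for the gene. The cells were bone marrow-derived mast cells (BMMC) of C57BL/6J mice, either miR-155 KO, which lack the microRNA miR-155, or wild type (WT), with 3 independent cultures per genotype and 1 Affymetrix Mouse Gene 1.0 ST array per culture. Both genotypes were differentiated over 5 weeks with the growth factors IL-3, at 0.5 ng/ml, and SCF, at 1 ng/ml. They then received anti-DNP IgE (0.2 µg/ml, overnight) and a 1 h stimulus of 20 ng/ml DNP-HSA, the antigen of that IgE. All 6 arrays come from stimulated cells, so the comparison is between genotypes and the response to antigen itself was not measured. The labels give no promoter, Cre or cell type for the deletion, and do not say whether 1 or several animals gave each culture.

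In a stimulated mast cell, antigen that cross-links IgE on its receptor FcεRI starts a chain of tyrosine kinases, and these activate PLC-γ on a scaffold of adaptor proteins. PLC-γ cleaves the membrane lipid PIP2 into IP3, which opens calcium stores, and diacylglycerol, which stays in the membrane and recruits PKC. The conventional PKC enzymes (here Prkca and Prkcb) need calcium and diacylglycerol, a calcium-independent group (Prkcd, Prkce, Prkch and Prkcq) needs diacylglycerol alone, and the atypical ones (Prkci and Prkcz) need neither.

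The microRNA absent from the KO cells has this mature sequence on its main arm in RefSeq (build GRCm38.p6, chr16:84714143-84714165, plus strand), shown because it is the only designed difference between the groups. The capitals mark its seed, bases 2 to 8, which pairs with target transcripts.
mmu-miR-155-5p: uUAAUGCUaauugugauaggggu
The probe set of its gene, Mir155, averaged 2.86 ± 0.08 in KO arrays and 2.99 ± 0.15 in WT arrays (log2 RMA intensity, SD, n = 3 each). Both means lie below the array medians of 3.67 to 3.74, and the difference of -0.13 did not pass (adjusted p = 0.679, limma). This probe set therefore checks neither the deletion nor the labels.

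The arrays carried strong signal for the mast cell genes Fcer1a, which encodes the IgE-binding receptor chain (12.10 ± 0.10 in KO, 12.06 ± 0.13 in WT), Kit, the SCF receptor (11.82 ± 0.10 in KO, 11.89 ± 0.19 in WT), and Cpa3, a granule protease (12.97 ± 0.18 in KO, 12.78 ± 0.03 in WT). Of 12 mast cell markers 0 passed the test between genotypes (limma, lowest adjusted p = 0.174). An unadjusted p under 0.05 was reached by 3 of the 12, against 12.7% of all genes. Their differences, KO minus WT, ran from -0.29 to 0.84, 4 negative and 8 positive. In 2 of the 12 KO lay above WT on every array, against 8.18% of all genes. On the first principal component of all genes, KO replicate 1 stood apart at -32.0. The other KO arrays were at -5.36 (replicate 2) and -7.31 (replicate 3), and WT replicates 1, 2 and 3 were at 14.6, 10.6 and 19.5.

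Of the 10 genes 1 fell in miR-155 KO, 0 rose and 9 did not pass the test, which is limma's moderated test over all 19938 genes with Benjamini-Hochberg adjustment and a threshold of 0.05. Over all genes 0.823% passed, 0.507% higher and 0.316% lower in KO. These calls came to 101 higher and 63 lower genes, and to 97 higher and 100 lower ones when the values were quantile normalized again. The gene that fell was Prkcq, which encodes PKCθ, a calcium-independent PKC best known for carrying the T cell receptor signal to NF-κB. The median difference of the 10 genes, KO minus WT on the log2 scale, was -0.16, against -0.01 over all genes tested. Of the 10 differences 7 were negative, against 10372 of 19938 over all genes.

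Prkcq read 5.06, 5.35 and 5.65 on KO replicates 1, 2 and 3, against 6.09, 6.23 and 6.39 on WT replicates 1, 2 and 3 (log2). Every KO array lay below every WT array, with a gap of 0.43 between the highest KO and the lowest WT value. The means were 5.35 ± 0.29 in KO and 6.23 ± 0.15 in WT, a difference of -0.88 (SE 0.15, 95% interval -1.22 to -0.54, adjusted p = 0.0424, limma), or 1.84-fold lower in KO. In RNA from a whole culture, fewer cells that express a gene and less of its RNA per cell cannot be told apart.

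The call on Prkcq lay close to the threshold. Without KO replicate 1 the difference was -0.73 (adjusted p = 0.0641), and the call was also lost without KO replicate 2 (0.0869) and without WT replicates 1, 2 and 3 (0.114, 0.135 and 0.143). It was kept without KO replicate 3 (-1.03, adjusted p = 0.0350). When every one of the 35557 probe sets was tested, named or not, the adjusted p was 0.175. The 95% interval lay below 0 in all 13 alternatives, which reuse the same arrays. Like every interval given here, it is for 1 gene and is not adjusted for the number of genes tested.

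**Figure D1:**
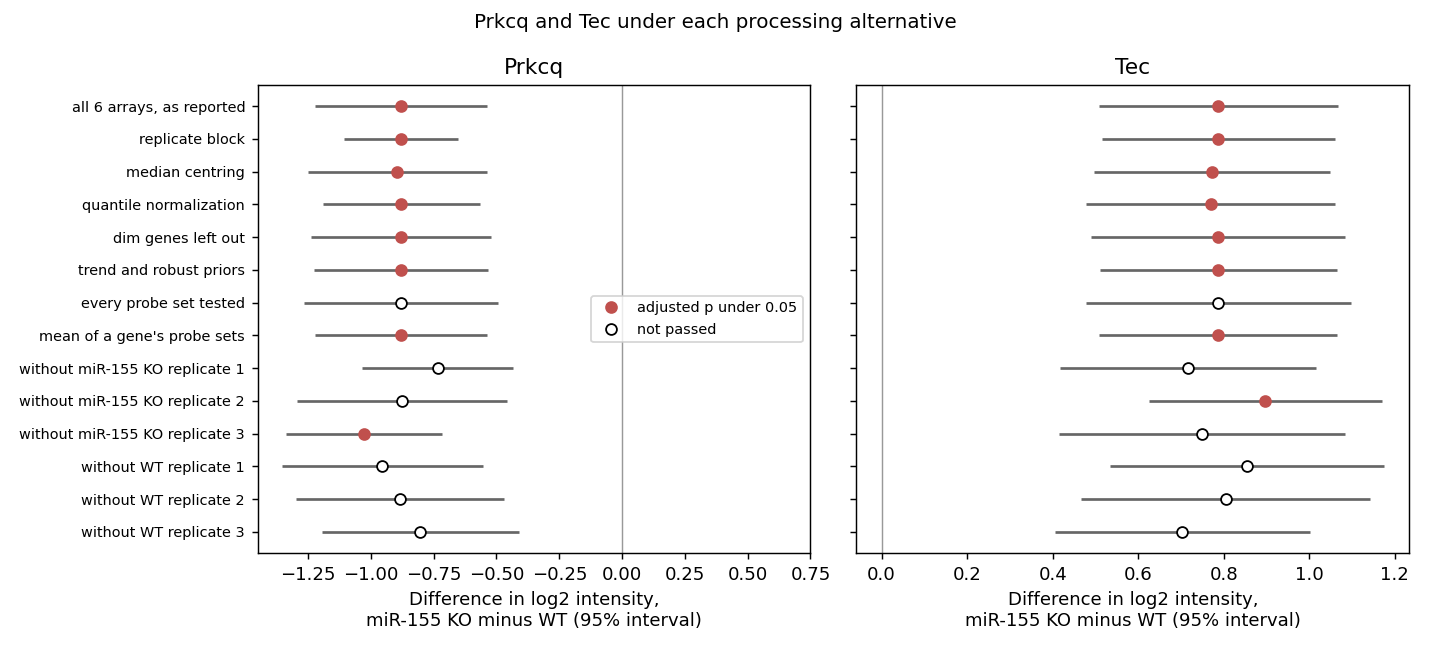
Difference in log2 intensity, miR-155 KO minus WT, with its 95% interval (limma), for Prkcq on the left and Tec on the right, under the reported setting and each of 13 alternatives. Filled red points passed at an adjusted p under 0.05 and open points did not. The Prkcq differences run from -1.03 to -0.73 and the Tec differences from 0.70 to 0.90, and each gene passed in 7 of the 13 alternatives.

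The promoter of Prkcq is shown because Prkcq is the only one of these genes that passed the test. The stretch covers 250 bases before to 50 bases after the annotated start (RefSeq, build GRCm38.p6, chr2:11172132-11172431, plus strand), and capitals mark the single match to any of 4 short motifs searched on both strands, GATAA of GATA factors, GGAAG of ETS factors, TGANTCA of AP-1 and TAAACA of forkhead factors.
Prkcq promoter: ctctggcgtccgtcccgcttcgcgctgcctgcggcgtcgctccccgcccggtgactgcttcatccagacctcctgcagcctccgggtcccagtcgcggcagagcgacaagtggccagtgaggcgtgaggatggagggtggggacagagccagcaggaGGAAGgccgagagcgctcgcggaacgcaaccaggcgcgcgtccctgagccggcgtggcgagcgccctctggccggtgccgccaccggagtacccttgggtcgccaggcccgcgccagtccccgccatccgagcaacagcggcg
The match is GGAAG, a motif held by 71.4% of the 32851 promoters of this length in the table. GATAA was in 25.4%, TAAACA in 13.4% and TGANTCA in 7.81% of them, and none of these 3 was in this window. The Prkcq promoter had 73.0% G and C and 37 CpG sites, against medians of 52.7% and 7 over all promoters in the table. Promoters were matched by symbol for 8 of the 10 genes, and the window at the annotated start of Prkca, which did not pass the test, had 75.3% G and C and 42 CpG sites.

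Plcg1 and Plcg2 encode the enzymes that open the pathway. PLC-γ1 is found in most tissues and PLC-γ2 mainly in blood cells. Plcg1 read 8.22, 8.29 and 8.35 on KO replicates 1, 2 and 3, against 8.62, 8.46 and 8.44 on WT replicates 1, 2 and 3, so the groups did not overlap, by a gap of 0.09. Its difference was -0.22 (SE 0.09, 95% interval -0.42 to -0.02, adjusted p = 0.335, limma) and did not pass. Plcg2 read 6.50, 6.48 and 6.70 on KO replicates 1, 2 and 3, against 6.86, 6.85 and 6.83 on WT replicates 1, 2 and 3. The WT arrays lay very close together (SD 0.01) and above all KO arrays (SD 0.12). The difference of -0.29 did not pass either (SE 0.09, 95% interval -0.49 to -0.08, adjusted p = 0.201).

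Among the conventional enzymes, Prkcb encodes PKCβ, which takes part in IgE-driven degranulation and cytokine production of mouse mast cells. Its probe set read 10.15, 10.32 and 10.18 on KO replicates 1, 2 and 3, against 10.53, 10.58 and 10.51 on WT replicates 1, 2 and 3. The groups were apart by 0.19, and the difference was -0.32 (SE 0.08, 95% interval -0.51 to -0.13, adjusted p = 0.133, limma), which did not pass. Prkca, the gene of PKCα, read 9.23, 9.28 and 9.30 on KO arrays, against 9.19, 9.36 and 9.16 on WT arrays. Here the KO values lay inside the WT range, and the difference was 0.03 (95% interval -0.17 to 0.23, adjusted p = 0.943). Its sign turned with quantile normalization (-0.03) and without WT replicate 3 (-0.0054), and it was 0.05 without KO replicate 1.

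Beside Prkcq, the calcium-independent enzymes showed no change past the threshold. Prkcd encodes PKCδ, which restrains degranulation in mouse mast cells, and read 9.52, 9.77 and 9.73 on KO replicates 1, 2 and 3, against 9.83, 9.70 and 9.71 on WT replicates 1, 2 and 3. The groups overlapped, with KO replicate 1 the lowest of the 6, and the difference was -0.08 (95% interval -0.30 to 0.14, adjusted p = 0.836, limma). Without KO replicate 1 it was -0.0020 and without WT replicate 1 it was -0.03, while it was -0.13 without KO replicate 2 and -0.14 with quantile normalization (adjusted p = 0.998, 0.956, 0.740 and 0.621).

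Prkce, the gene of PKCε, read between 3.76 and 3.98 in KO arrays and between 3.89 and 4.04 in WT arrays, little above the array medians (difference -0.09, adjusted p = 0.788). Its difference lay between -0.15 without KO replicate 2 and -0.04 without KO replicate 3, and was -0.05 without WT replicate 3. Prkch, the gene of PKCη, an isoform known from epithelia, read 3.04, 2.89 and 2.85 in KO arrays, against 3.20, 3.24 and 3.02 in WT arrays, below the array median on all 6. Its groups overlapped by the values of KO replicate 1 and WT replicate 3, and the difference of -0.23 did not pass (adjusted p = 0.365). A second, dimmer Prkch probe set averaged 2.47 ± 0.02 in KO and 2.50 ± 0.03 in WT, and the mean of both probe sets differed by -0.13. Signals this low may be background, so the differences of Prkce and Prkch are not exact.

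The atypical enzymes take part in cell polarity and in signalling through the scaffold p62, and both had positive differences. Prkci, the gene of PKCι, read 7.80, 7.55 and 7.77 on KO replicates 1, 2 and 3, against 7.48, 7.53 and 7.33 on WT replicates 1, 2 and 3. All KO values were above all WT values, by a gap of only 0.02 between KO replicate 2 and WT replicate 2. The difference was 0.26 (SE 0.10, 95% interval 0.03 to 0.49, adjusted p = 0.323, limma) and did not pass. Prkcz, the gene of PKCζ, read 4.93, 4.50 and 4.79 in KO arrays, against 4.47, 4.57 and 4.55 in WT arrays. These groups overlapped at KO replicate 2 (difference 0.21, 95% interval -0.05 to 0.48, adjusted p = 0.525). The difference was 0.12 without KO replicate 1 (adjusted p = 0.847) and 0.33 without KO replicate 2 (95% interval 0.10 to 0.56, adjusted p = 0.192). Its second probe set was dimmer and differed by 0.32 (3.53 ± 0.16 in KO, 3.21 ± 0.27 in WT, adjusted p = 0.588 over every probe set). There the groups overlapped and both means lay below the array medians, so this signal may be background.

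**Figure D2:**
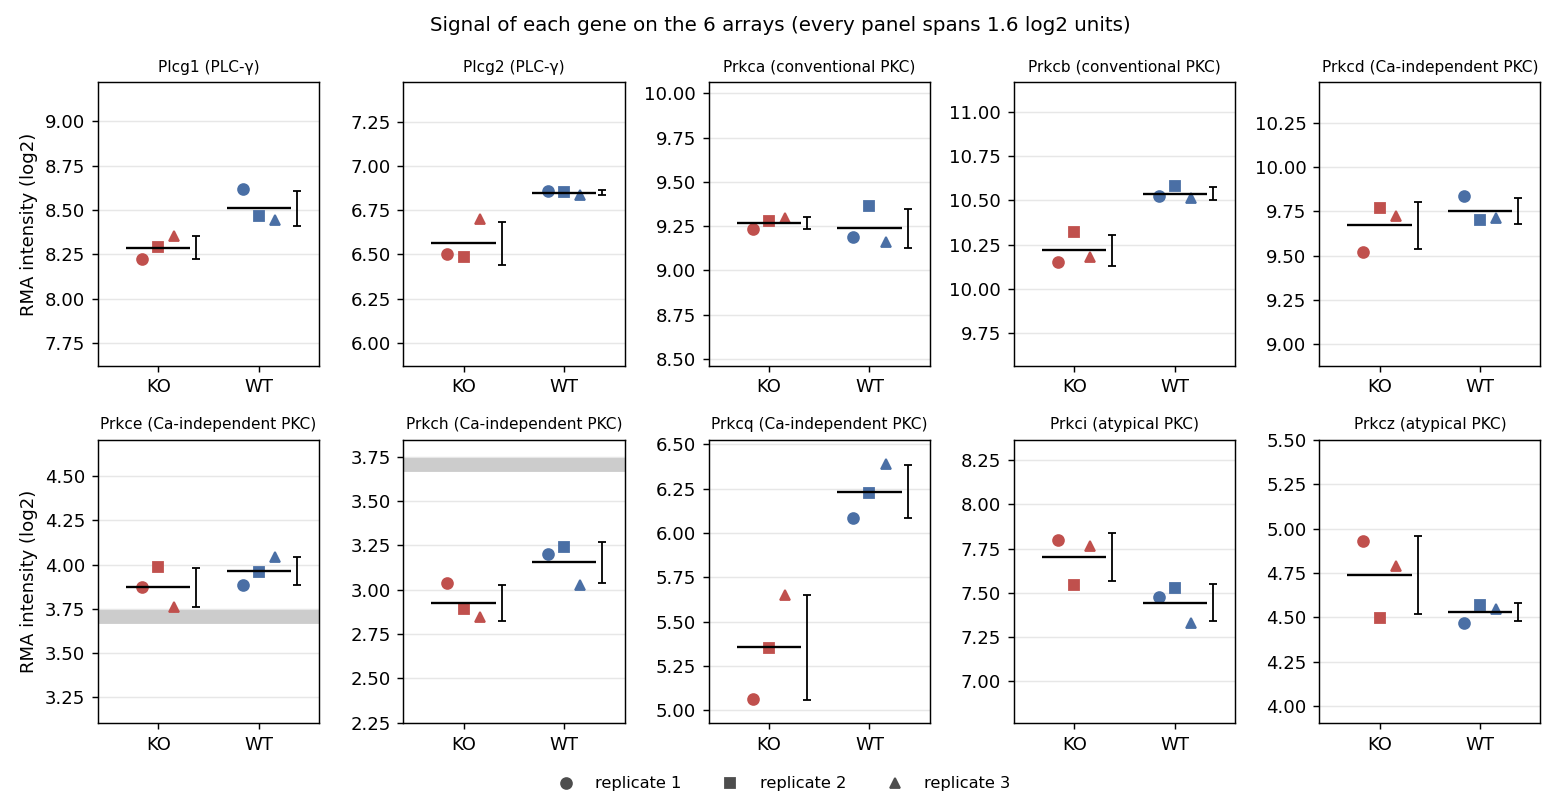
RMA intensity (log2) of each of the 10 genes on the 3 miR-155 KO arrays (red) and the 3 WT arrays (blue). Symbols give the replicate number, which is not known to pair the cultures. Horizontal lines give group means, bars the SD, and the grey band the range of the 6 array medians. Prkcq has the widest gap between groups (0.43), and Prkch lies below the grey band on all 6 arrays.

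KO and WT arrays did not overlap for 5 of the 10 genes, 4 with KO below WT (Plcg1, Plcg2, Prkcb and Prkcq) and 1 with KO above WT (Prkci), where 17.2% of all genes tested did not overlap, 9.05% with KO below and 8.18% with KO above. An unadjusted p under 0.05 was reached by 6 of the 10, against 12.7% of all genes. These genes were read on the same 6 arrays and are not replicates of each other. Because they were chosen with earlier results of these data known, the counts are a description only. The 95% intervals of the 9 genes that did not pass all lay between -0.51 and 0.49, and the Prkcq interval did not overlap any of them. Differences between one member's change and another's were not tested.

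**Figure D3:**
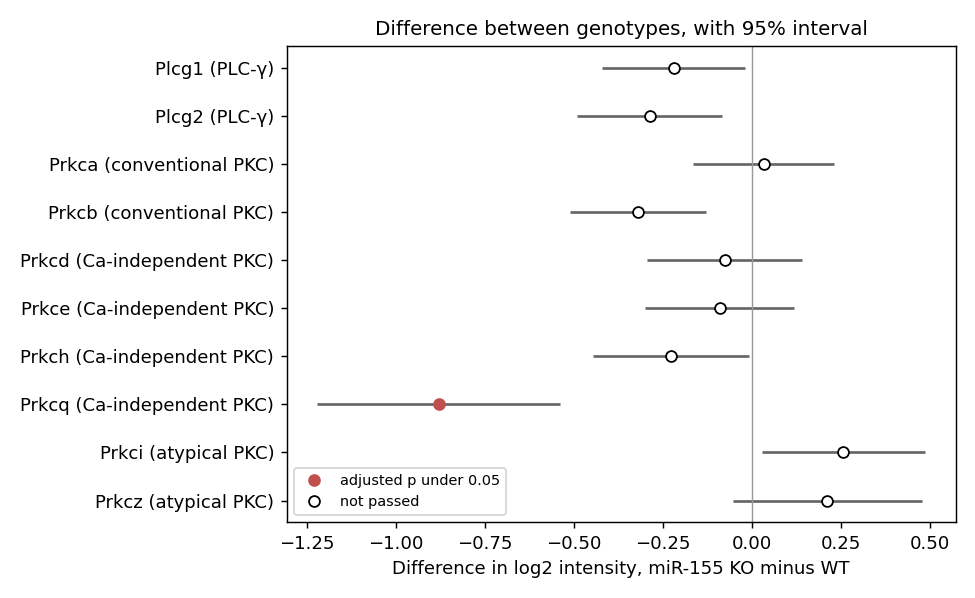
Difference in log2 intensity, miR-155 KO minus WT, of each of the 10 genes with its 95% interval (limma, 3 arrays per genotype). The filled red point is Prkcq at -0.88, which passed at an adjusted p under 0.05. Open points did not pass and lie between -0.32 and 0.26.

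Markers of other cells were read beside these differences, since PKCθ is abundant in T cells and PLC-γ2 in B cells and myeloid cells. The mean log2 level of 8 T cell markers lay between 3.43 and 3.51 in KO arrays and between 3.37 and 3.55 in WT arrays, below the array medians, and that of 6 B cell markers between 3.14 and 3.19 in KO and between 3.04 and 3.21 in WT arrays. Of both lists 0 passed (limma, 0 at an unadjusted p under 0.05). Of 8 macrophage and monocyte markers 1 fell, Cx3cr1, the fractalkine receptor gene, named here after its values were seen. It averaged 7.85 ± 0.23 in KO and 8.80 ± 0.20 in WT, a difference of -0.95 (adjusted p = 0.0280, and 0.00955 to 0.151 over the alternatives). Its call was lost without KO replicate 1 (-0.87, adjusted p = 0.0585) or 3, without WT replicate 1, 2 or 3, and over every probe set. Of these 8 markers 7 had negative differences (median -0.20), against 10372 of 19938 over all genes. Their mean log2 level lay between 4.12 and 4.40 in KO arrays and between 4.47 and 4.71 in WT arrays. The summed linear signal of these 8 markers was 446 to 637 in KO and 812 to 942 in WT arrays. Without Cx3cr1 it was 241 to 402 in KO and 401 to 416 in WT arrays, and 6 of the other 7 differences were negative. The part of these cells in the lower Prkcq signal, and in the Plcg2 difference, was not tested.

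Around the 10 genes, 115 others of the pathway were listed by role, and 105 of them had a probe set with 1 symbol. Of these 1 rose, 0 fell and 104 did not pass, which is 0.952% called against 0.823% of all genes. An unadjusted p under 0.05 was reached by 22 of the 105 (limma), against 12.7% of all genes. KO and WT arrays did not overlap for 24 of the 105, 12 with KO below and 12 with KO above, against 17.2% of all genes. The 12.7% is also the share to set beside the counts of each list below. The median difference of the 105 was -0.01, the same as over all genes.

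The gene that rose was Tec, which encodes a tyrosine kinase of the family that phosphorylates PLC-γ. Tec read 7.78, 7.42 and 7.72 on KO replicates 1, 2 and 3, against 6.98, 6.88 and 6.68 on WT replicates 1, 2 and 3. The groups were well apart, and the difference was 0.79 (SE 0.12, 95% interval 0.51 to 1.07, adjusted p = 0.0302, limma), or 1.73-fold. Like that of Prkcq, the call was lost without KO replicate 1 (0.72, adjusted p = 0.0700). It was lost as well without KO replicate 3 (0.0984), without WT replicates 1, 2 and 3 (0.0832, 0.104 and 0.109) and over every probe set (0.159). The other 12 measured activators and scaffolds of PLC-γ did not pass. Of all 13 measured, 4 reached an unadjusted p under 0.05 (limma), and the list's median difference was -0.02. Its differences ran from -0.44 to 0.79, 8 negative and 5 positive. The groups did not overlap in 6 of the 13, 4 with KO below and 2 with KO above, against 17.2% of all genes.

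Further phospholipases C, which are driven by other receptors or have other forms of control, gave 0 calls among 16 measured (limma, 1 at an unadjusted p under 0.05) and a median of 0.02. In 1 of the 16 the KO and WT arrays did not overlap, with KO below, against 17.2% of all genes. The lowest p was that of Plcb1, a phospholipase C downstream of G proteins, at 4.58 ± 0.05 in KO and 4.87 ± 0.12 in WT (difference -0.28, adjusted p = 0.215). Plcxd2 (0.16) and Plce1 (0.14) followed, with levels below or near the array medians.

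On the IP3 side 0 of 13 passed (limma, 3 at an unadjusted p under 0.05). Of the 13 differences 9 were positive (median 0.13), against 9566 of 19938 over all genes. Ippk, the kinase that makes inositol hexakisphosphate, averaged 4.61 ± 0.15 in KO and 4.19 ± 0.18 in WT (0.42, adjusted p = 0.156). Inpp5a, a phosphatase that removes IP3, averaged 6.67 ± 0.18 in KO and 6.34 ± 0.11 in WT (0.34, adjusted p = 0.233). Itpkc, a kinase that converts IP3, differed by 0.26 (adjusted p = 0.270). KO lay above WT on every array in 3 of the 13, these same genes with the lowest p, against 8.18% of all genes.

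On the diacylglycerol side 0 of 17 genes of its removal and of PIP2 supply passed (limma, 5 at an unadjusted p under 0.05), with a median of -0.11. Dgke and Dgkd, which encode kinases that convert diacylglycerol to phosphatidic acid, differed by -0.43 (3.84 ± 0.14 in KO, 4.28 ± 0.08 in WT, adjusted p = 0.0935) and by -0.37 (7.77 ± 0.07 in KO, 8.14 ± 0.10 in WT, adjusted p = 0.105). Pip5k1a, a kinase that makes PIP2, differed by 0.47 (8.38 ± 0.16 in KO, 7.92 ± 0.13 in WT, adjusted p = 0.103). None of these 3, which had the lowest p of the 17, passed in any of the 13 alternatives. KO and WT arrays did not overlap for 4 of the 17, these 3 among them, against 17.2% of all genes.

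Other proteins that bind diacylglycerol gave 0 calls among 13 (limma, 3 at an unadjusted p under 0.05) and a median of -0.08. Unc13d, the vesicle priming factor Munc13-4 of mast cell granules, averaged 6.22 ± 0.16 in KO and 6.56 ± 0.09 in WT (-0.34, adjusted p = 0.202). Chn2, the Rac inhibitor beta-chimaerin, averaged 8.67 ± 0.23 in KO and 9.06 ± 0.12 in WT (-0.39, adjusted p = 0.217). Unc13a, a relative of Unc13d known from synapses, differed by -0.27 on its brightest probe set (adjusted p = 0.332), by -0.03 over the mean of its probe sets (adjusted p = 0.947) and by -0.18 without KO replicate 3 (adjusted p = 0.620). On the brightest probe sets, KO lay below WT on every array in 3 of the 13, these same genes with the lowest p, against 9.05% of all genes.

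Relatives, activators, anchors and phosphatases of PKC gave 0 calls among 14 (limma, 4 at an unadjusted p under 0.05) and a median of 0.02. In 5 of the 14 the KO and WT arrays did not overlap, 4 with KO above and 1 with KO below, against 17.2% of all genes. Mtor and Pdpk1, kinases needed for PKC to mature, averaged 7.22 ± 0.10 in KO and 6.88 ± 0.11 in WT (0.33, adjusted p = 0.167) and 7.66 ± 0.05 in KO and 7.31 ± 0.20 in WT (0.35, adjusted p = 0.201). Sqstm1, the p62 scaffold of atypical PKC, averaged 11.24 ± 0.12 in KO and 10.97 ± 0.08 in WT (0.27, adjusted p = 0.269).

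Of 19 substrates and effectors of PKC 0 passed (limma, 2 at an unadjusted p under 0.05), with a median of -0.02. In 2 of the 19 the KO and WT arrays did not overlap, each with KO above, against 17.2% of all genes. Lcp1, the actin-bundling protein L-plastin, averaged 10.82 ± 0.05 in KO and 10.51 ± 0.02 in WT (0.31, adjusted p = 0.119). Pebp1, which holds back Raf until PKC phosphorylates it, differed by -0.28 (adjusted p = 0.327). Plek, the platelet PKC substrate pleckstrin, read 11.04, 10.21 and 10.32 on KO replicates 1, 2 and 3, against 10.11, 10.15 and 10.05 on WT replicates 1, 2 and 3. Its difference of 0.42 (adjusted p = 0.425) was 0.16 without KO replicate 1, the array with by far the highest value.

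**Figure D4:**
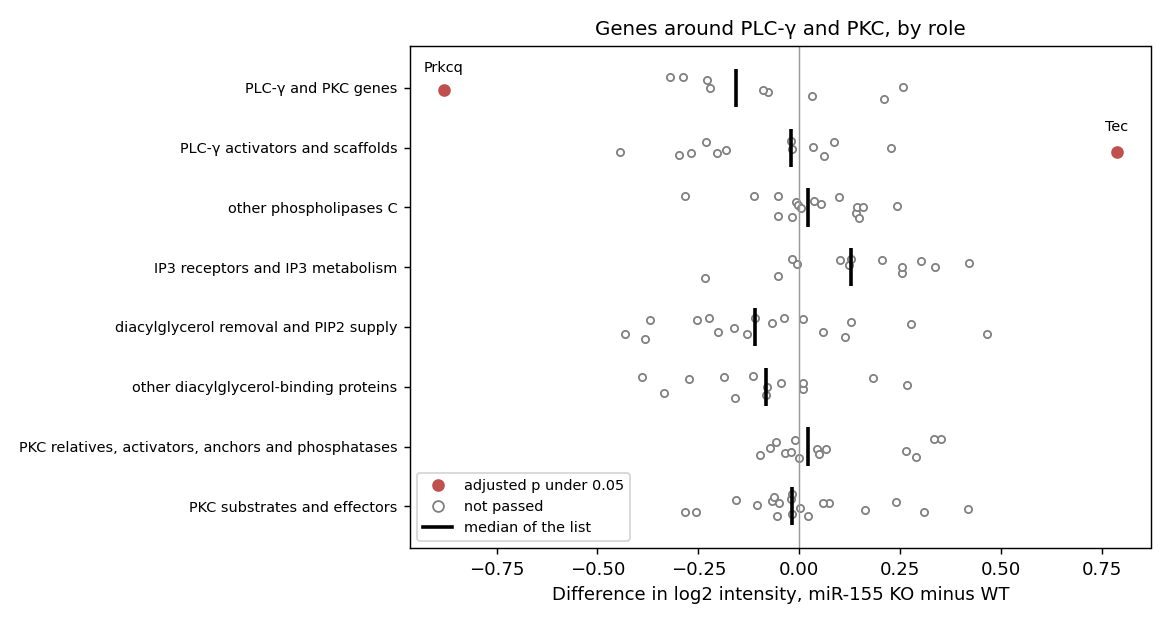
Difference in log2 intensity, miR-155 KO minus WT, of each measured gene, by role. Each point is 1 gene, black bars are list medians, and filled red points passed at an adjusted p under 0.05 (limma over 19938 genes). Prkcq at -0.88 and Tec at 0.79 are the called genes, and the list medians run from -0.16 for the 10 PLC-γ and PKC genes to 0.13 for the IP3 genes.

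The genes whose pattern over the 6 arrays was most like that of a member were sought among genes with a mean of at least 6 on the log2 scale, 5848 in the case of Prkcq, as a description with no test. Nearest to Prkcq were Kctd13 (Pearson r 0.997), Ctps2 (0.995) and Vps26b (0.993), which differed by -0.41, -0.47 and -0.35 and did not pass (adjusted p = 0.106, 0.0962 and 0.145, limma). Nearest to Plcg2 were Rab27a (0.992), a GTPase of granule docking at -0.62 (adjusted p = 0.0523, past the threshold in 4 of the 13 alternatives), Mgat4b (0.990) and Antkmt (0.983). Nearest to Plcg1 were S1pr4 (0.987), a receptor for sphingosine 1-phosphate at -0.53 (adjusted p = 0.107), Ksr1 (0.974) and Stum (0.973). All of these share the arrays and the genotype difference with the member.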

How the data were processed

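RNA was hybridised to Affymetrix Mouse Gene 1.0 ST arrays, 1 per culture, 3 miR-155 KO and 3 WT. Before deposit the authors turned the scans into log2 intensities with RMA (background correction, normalization between arrays, probe summary), as the submitters' processing notes name it, without a version. Of 35557 probe sets 21789 had 1 gene symbol in the platform annotation, 1621 several and 12147 were not listed. Genes with several single-symbol probe sets (999) kept the one with the highest mean, leaving 19938 genes. Differences were tested in R 4.3.3 by lmFit and eBayes of limma 3.58.1, with genotype as the only term, two-sided, with Benjamini-Hochberg adjustment over all 19938 and a threshold of 0.05. SE is the moderated standard error. No pseudocount or filter was used, and the number of arrays limits the precision. The alternatives were a replicate block, median centring, quantile normalization, leaving out dim genes, trend and robust priors, every probe set tested, the mean of a gene's probe sets, and leaving out each array. In simulated data for this comparison with 19938 genes, 56.7% of genes changed by 0.5, 98.4% of those changed by 1 and 100% of those changed by 2 (log2) were called. Of genes changed by -1, 99.1% were called, and of unchanged genes 0.0585%. Changes smaller than 0.5 in size, such as those of the 9 genes that did not pass, were not simulated. The simulated noise was normal and independent, with each gene's SD drawn toward a common value and no outlying array. These shares need not hold for the real arrays.

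Members and lists were chosen with earlier results of these data known. All members are named, and of each pathway list the called genes or otherwise the 3 with the lowest p, the 3 genes most like Plcg1, Plcg2 and the PKC gene with the lowest p, and Mir155, Fcer1a, Kit and Cpa3. Marker lists of neutrophils, basophils and eosinophils, dendritic cells, and erythroid and megakaryocyte cells were also read, and 0 of their 27 measured genes passed (limma, 3 at an unadjusted p under 0.05). Sequences are those of RefSeq. A search for miR-155 sites in transcripts was not made here. Plots were drawn with matplotlib 3.10.9.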

Additional observations from a re-analysis of the deposited data

How the results depend on the processing

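Over 13 alternatives, 8 of the 10 genes kept their direction and stayed on their side of the threshold. Prkcq kept its direction in all 13 and passed in 7, with differences from -1.03 to -0.73. Prkca turned to -0.026 with quantile normalization and -0.0054 without WT replicate 3, within -0.0054 to 0.095 over the fits without 1 array. Among the markers, Fcer1a turned to -0.0046 without KO replicate 3 and -0.016 without WT replicate 2 (up to 0.11 without WT replicate 3), and Kit to 0.034 without WT replicate 3 (down to -0.15 without WT replicate 1). The cause was not tested. Prkce and Prkch gave no value when dim genes were left out.

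Leaving out 1 array gave 15 to 167 called genes in all (164 with all arrays), 0 to 1 of the 10 genes and 0 to 1 of the 105 pathway genes. Fewer arrays were fitted in these. The genes called numbered 103 and 74 without KO replicates 1 and 3, and 15, 43 and 27 without WT replicates 1, 2 and 3. With every probe set tested, 4 genes in all, 0 of the 10 and 0 of the 105 passed. This setting raises the number of tests and also changes the moderated SE (0.16 against 0.15 for Prkcq). The part of each was not tested. With the replicate number as a block, 199 genes passed, 129 of them among the 164, and Prkcq had an adjusted p of 0.0231. Whether the numbers pair the cultures is not known. Same-numbered KO and WT arrays had correlations of deviations from their group means of -0.01, -0.06 and 0.24. KO replicate 1 correlated best with WT replicate 2 (0.24), KO replicate 2 with WT replicate 3 (0.05), and only KO replicate 3 with its own number. With 3 arrays per genotype, these values cannot settle the question. The 3 arrays per genotype and the low signal of Prkce and Prkch limit what can be seen.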
